A study of Homo sapiens with 12 samples.

Results

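HINFP binding was compared between hTERT-RPE1 and U2OS cells in the region lists of 2 ChIP-Seq libraries. A region was taken as enriched when it held at least 20 ChIP sequences and when its ratio, the ChIP sequences plus 1 over the IgG sequences plus 1, was at least 4. Enriched regions of the lines were taken as the same site when they overlapped by 1 bp or more. In hTERT-RPE1 cells 249 of 64340 listed regions were enriched (0.387% of the list), and in U2OS cells 160 of 39603 were (0.404%). Together they made 345 sites, of which 64 were enriched in both lines, 185 in hTERT-RPE1 cells only and 96 in U2OS cells only. Most of the account concerns sites outside a window on chromosome 6, from just above 26 Mb to 28 Mb (NCBI36, the build of all positions here), that holds 8 of the 64 shared sites.

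HINFP is a zinc finger transcription factor best known for binding the promoters of histone H4 genes and activating them as cells enter S phase. There it works with NPAT, a coactivator of histone genes that is a target of cyclin E and CDK2. CASP8AP2 lies in the same nuclear body and takes part in making histone mRNA, and E2F1 drives genes of the G1 to S transition. The window on chromosome 6 covers the largest cluster of histone genes in the human genome.

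The U2OS line comes from an osteosarcoma, while hTERT-RPE1 cells derive from normal retinal pigment epithelium and were made immortal with telomerase. In ChIP-Seq, DNA bound by a protein is pulled down with an antibody and sequenced. The study did so for HINFP, NPAT, CASP8AP2 and E2F1 in both lines, using 5 µg of antibody each time, with goat IgG as the control for HINFP and rabbit IgG for the other 3 factors. The labels describe no treatment of either line. Every factor had 1 library in each line, so that no spread between replicates is known for any value, and a difference between the libraries cannot be told apart from a difference between the cells. Intervals and p-values cover counting error only and compare these libraries.

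The lists were limited to regions where at least 8 reads were piled up at the summit. The total number of reads in a library is not in the lists. The fold change in the lists is the ratio above times a constant of the library, which puts the depth of the HINFP library at 1.00 times that of its IgG library in hTERT-RPE1 cells and at 0.858 times in U2OS cells. Sequences counted in listed regions summed to 758012 in the hTERT-RPE1 and 501130 in the U2OS HINFP library, and only 8647 and 7162 of these lay in enriched regions. Regions with a height of exactly 8 held a median of 9 ChIP sequences in either library, but up to 36 in hTERT-RPE1 and 27 in U2OS cells. The 99th percentiles of these regions were 16 ChIP sequences in hTERT-RPE1 and 17 in U2OS cells. A site that is not listed in a line could therefore still hold as many sequences there as a weak enriched site. How often this was so cannot be told, since regions below the limit are not in the lists.

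Outside the window, 56 sites were enriched in both lines, which is 23.2% of the 241 sites of hTERT-RPE1 cells (18.3 to 29.0%, 95% Wilson interval) and 37.1% of the 151 sites of U2OS cells (29.8 to 45.0%). Among the 10 sites with the most ChIP sequences, 9 in hTERT-RPE1 and 8 in U2OS cells were shared. Among the top 20 the numbers were 17 and 16, and among the top 40 they were 31 and 28. These counts and those by depth describe the rule as much as the sites, because the rule uses the ChIP sequences of both lines and a site just above its limit in one library can easily fall below it in the other.

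Of the hTERT-RPE1 sites with 50 or more ChIP sequences 75.9% were shared (22 of 29, 57.9 to 87.8%), against 59.3% of those with 35 to 49 (16 of 27) and 30.2% of those with 25 to 34 (16 of 53). Only 2 of the 132 sites with 20 to 24 ChIP sequences were shared (1.52%, 0.416 to 5.36%). In U2OS cells the shares were 70.3% (26 of 37, 54.2 to 82.5%), 46.7% (14 of 30), 25% (9 of 36) and 14.6% (7 of 48, 7.25 to 27.2%), in the same order. The lowest class thus holds the largest number of sites in either line, and most of the sites of hTERT-RPE1 cells.

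**Figure D1:**
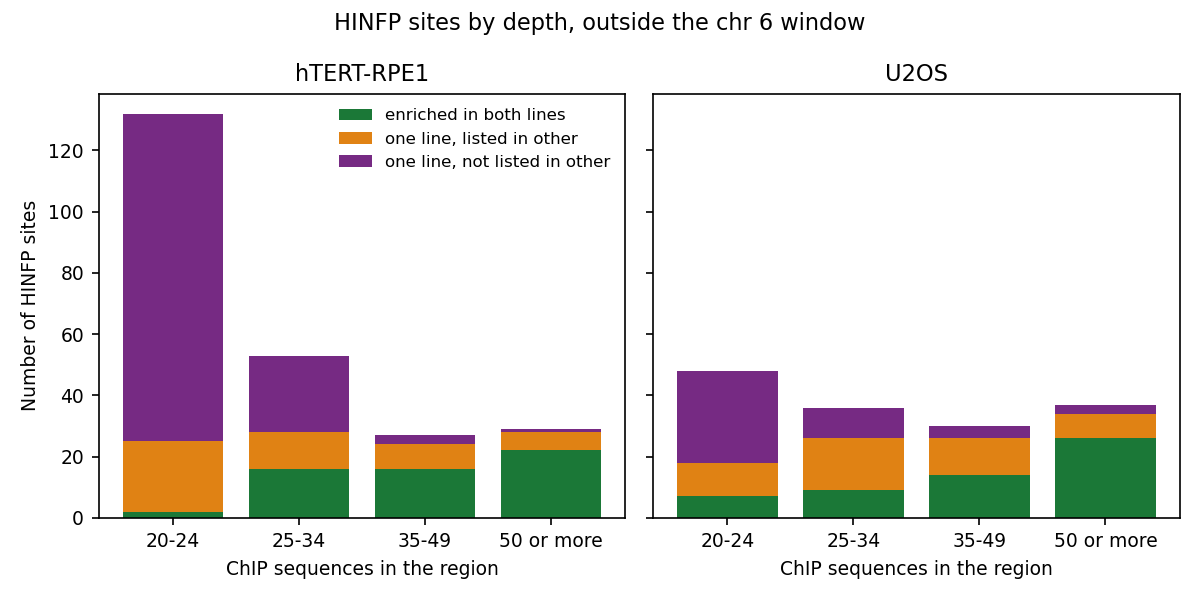
Number of HINFP sites outside the chromosome 6 window (y axis) by the number of ChIP sequences in the region (x axis) in hTERT-RPE1 (left) and U2OS cells (right), stacked by class. Shared sites are 2 of 132 in the lowest class of hTERT-RPE1 cells and 22 of 29 in the highest, and 7 of 48 and 26 of 37 in U2OS cells.

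The shared site with the highest lower ratio of the pair lay on chromosome 3, at 130517624 to 130518111. HINFP had 259 ChIP against 4 goat IgG sequences there in hTERT-RPE1 cells and 228 against 8 in U2OS cells. Positions of shared sites are those of the hTERT-RPE1 region. Its ratio of 52.0 in hTERT-RPE1 and 25.4 in U2OS cells was high in either line, and its summits were 7 bp apart.

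The second site, on chromosome 22 at 36530906 to 36531425, had the most ChIP sequences of all enriched U2OS regions. It counted 85 ChIP and 4 IgG sequences in hTERT-RPE1 cells, where the fold change was 17.2. In U2OS cells it counted 312 and 11, with a fold change of 30.4. The fold changes lay closer together than the ChIP counts, since IgG was also higher in U2OS cells. Summits were 2 bp apart.

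Of the following sites, 2 on chromosome 19 had fewer sequences. The region at 60462280 to 60462701 had 28 ChIP and 1 IgG sequences in hTERT-RPE1 cells and 47 and 2 in U2OS cells. The region at 7845224 to 7845683 had 31 and 1 in hTERT-RPE1 cells and 51 and 3 in U2OS cells. The high ratios of these sites, from 13.0 to 16, rest on 1 to 3 IgG sequences.

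Strong sites with unequal ratios lay on chromosomes 11, 2, 1 and 15. At chromosome 11, 59278026 to 59278610, there were 119 ChIP and 1 IgG sequences in hTERT-RPE1 cells and 170 and 11 in U2OS cells. The ratio was thus 60 in hTERT-RPE1 cells, the highest of its shared sites, and 14.2 in U2OS cells, although U2OS cells had more ChIP sequences. At chromosome 2, 73817790 to 73818382, the counts were 134 and 9 in hTERT-RPE1 cells and 168 and 7 in U2OS cells. At chromosome 1, 21858081 to 21858551, they were 59 and 4 in hTERT-RPE1 cells and 121 and 3 in U2OS cells. Both of these sites had the higher ratio in U2OS cells, 21.1 against 13.5 and 30.5 against 12. At chromosome 15, 39310510 to 39311005, HINFP had 217 ChIP and 18 IgG sequences in hTERT-RPE1 cells and 191 and 5 in U2OS cells. It had the most IgG of the shared hTERT-RPE1 sites outside the window, and a ratio of 11.5 against 32.0 in U2OS cells.

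The other 4 of the 12 shared sites with the highest lower ratio had between 22 and 93 ChIP sequences. The site at chromosome 2, 38005910 to 38006322, had 31 ChIP and 2 IgG sequences in hTERT-RPE1 and 93 and 5 in U2OS cells. The others, at chromosome 9, 92902045 to 92902465, chromosome 7, 142788085 to 142788648, and chromosome 11, 87547375 to 87547852, had ratios from 9.80 to 14.7 and nearly level counts on chromosome 11, 45 and 48 ChIP sequences.

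Over all 56 shared sites the ratio had a median of 10.0 in hTERT-RPE1 cells (4.14 to 60) and of 8.29 in U2OS cells (4 to 52.0). The ranks of the sites were held only loosely between the lines. Spearman's rho over the 56 sites was 0.36 for the ChIP sequences and 0.42 for the summit height, but 0.08 for the ratio, which divides by small IgG counts. IgG counts themselves had a rho of 0.27, and the sites share 1 library per line. The widest gaps were at sites with an IgG count of 0 or near it. At chromosome 4, 13528810 to 13529260, the counts were 52 and 0 in hTERT-RPE1 and 22 and 3 in U2OS cells, and at chromosome 3, 52542847 to 52543372, they were 53 and 5 against 51 and 0. The ChIP sequences of the latter were almost the same, and only the IgG count differed.

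**Figure D2:**
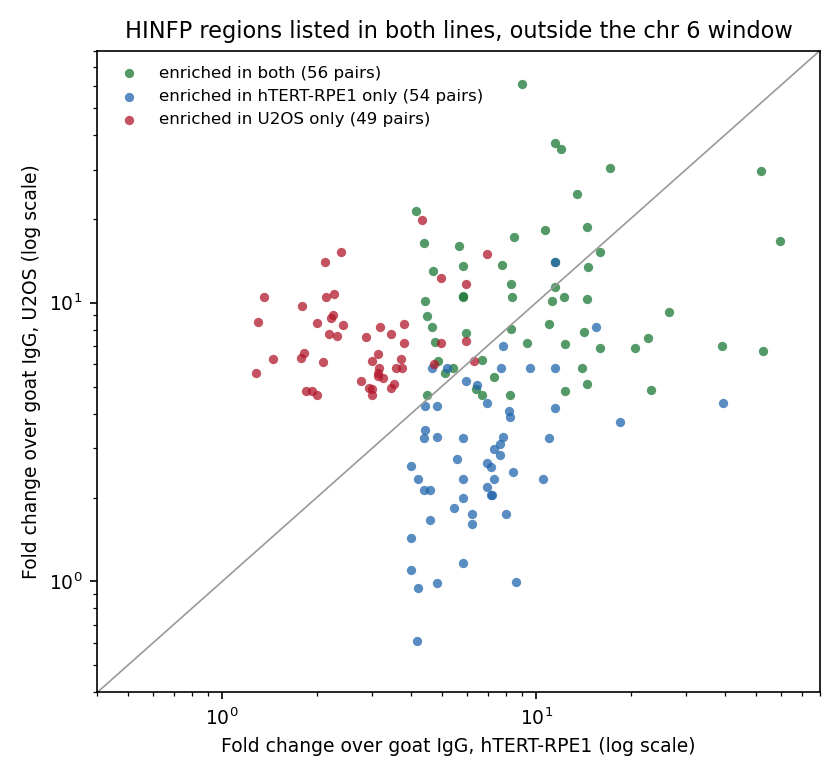
Fold change over goat IgG in hTERT-RPE1 (x axis) and U2OS cells (y axis), both on log scales, for pairs of overlapping HINFP regions outside the chromosome 6 window with at least 1 enriched member, and the line of equal values. The 56 shared pairs (green) lie on both sides of the line. The fold change was higher in hTERT-RPE1 cells in 51 of the pairs enriched in hTERT-RPE1 cells only (blue, 54). It was so in 1 of those enriched in U2OS cells only (red, 49). The way the pairs were chosen favors these sides.

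The counts of each pair of overlapping regions were compared between the libraries by an exact conditional test, with the depth constants as offset and Benjamini-Hochberg adjustment over all 3212 pairs of listed regions. None of the 64 shared sites passed an adjusted p of 0.05, and 4 had an unadjusted p under 0.05 (6.25%, against 10.4% of all pairs). Their lowest adjusted p was 0.223. Of all 3212 pairs, 6 were called with the higher fold change in hTERT-RPE1 cells (0.187%) and 47 with the higher one in U2OS cells (1.46%). The median ratio of fold changes at the shared sites, hTERT-RPE1 over U2OS, was 1.02, and 39 of the 64 were within 2-fold. Over all pairs the median was 0.95 and 2112 of 3212 were within 2-fold. The test does not show the sites to be equal, since few IgG sequences leave wide intervals. The median IgG count of shared sites was 4 in hTERT-RPE1 and 5 in U2OS cells, against 9 and 10 in all pairs. Shared sites were also chosen by these same counts, for a ratio of at least 4 in both lines. That choice favors like fold changes and fewer low p-values. For the chromosome 3 site the depth-scaled ratio of counts was 1.95 (95% exact conditional interval 0.51 to 8.94), and for the chromosome 22 site it was 0.64 (0.18 to 2.84).

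Of the shared sites, the 2 with the lowest p were the chromosome 15 site at 39310510 and a site on chromosome 10 at 70554495 to 70555046. The latter had 92 ChIP and 3 IgG sequences in hTERT-RPE1 cells and 45 and 10 in U2OS cells, and its depth-scaled ratio of counts was 5.84 (1.39 to 34.2, p = 0.0112, adjusted p = 0.223 by the exact conditional test). For the chromosome 15 site it was 0.27 (0.077 to 0.78, p = 0.0111, adjusted p = 0.223 by the same exact test).

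Among all 167 pairs with an enriched member, a single one was called, on chromosome Y at 11923025 to 11923533. The rule had classed it as found in hTERT-RPE1 cells only by the same counts, so that its direction is fixed by the choice, which also favors a low p. HINFP had 24 ChIP and 5 IgG sequences in hTERT-RPE1 cells and 10 and 20 in U2OS cells, so that the U2OS count lay below its control. The fold changes were 4.16 and 0.61, and the depth-scaled ratio of counts was 8.23 (2.12 to 34.9, adjusted p = 0.0470 by the exact conditional test). The 140 regions listed on chromosome Y in hTERT-RPE1 cells had a median of 24 IgG sequences, and the 107 in U2OS cells a median of 23, against 2 to 7 on the other chromosomes. Among the 53 pairs called over the whole list, the median IgG count was 54 in hTERT-RPE1 and 38 in U2OS cells, against 9 and 10 in all pairs, and 52 of them had no enriched member.

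Sites enriched in one line were of 2 kinds. Outside the window, 49 of the 185 sites of hTERT-RPE1 cells overlapped a region that was listed in U2OS cells without passing the rule, and 136 overlapped none. In U2OS cells the numbers were 48 and 47. Sites with a listed partner were thus 20.3% of all sites of hTERT-RPE1 cells (15.7 to 25.9%) and 31.8% of those of U2OS cells (24.9 to 39.6%), and sites without one were 56.4% (50.1 to 62.5%) and 31.1% (24.3 to 38.9%).

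Sites with a listed partner missed one or both limits of the rule in the other line. The hTERT-RPE1 sites made 54 pairs with U2OS regions, since 5 of the sites overlapped more than 1, and the median ratio of the pairs was 6.75 in hTERT-RPE1 and 2.40 in U2OS cells. The U2OS list had 12 of the 54 with 20 or more ChIP sequences but a ratio under 4, and 10 with a ratio of at least 4 but fewer sequences. The other 32 met neither limit. In the opposite direction there were 49 pairs, 1 of them at a site that is shared through another region, with a median ratio of 5.67 in U2OS and 3 in hTERT-RPE1 cells. There 23 pairs failed by the ratio alone, 8 by the number of sequences alone and 18 by both. In the line where the site was not enriched, IgG was higher in 34 of 54 and 33 of 49 pairs, and ChIP sequences were fewer in 48 of 54 and 42 of 49, but the pairs were classed by these same counts, so that these directions are a description of the choice. When a ratio of at least 2 in the other line was asked for in place of the rule, 99 of 249 hTERT-RPE1 regions (39.8%) and 103 of 160 U2OS regions (64.4%) had a partner.

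The largest gap in fold change among these pairs was on chromosome 15, at 42367813 to 42368255. HINFP had 78 ChIP and 1 IgG sequences in hTERT-RPE1 cells and 44 and 11 in U2OS cells. The fold change was 39.5 against 4.37, but the site also held many HINFP sequences in U2OS cells, where a higher IgG count kept the ratio at 3.75. The depth-scaled ratio of counts was 16.7 with an interval from 2.25 to 728 (adjusted p = 0.0650 by the exact conditional test).

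A site on chromosome 8, at 120168532 to 120169311, had 25 ChIP and 2 IgG sequences in hTERT-RPE1 cells against 11 and 13 in U2OS cells (adjusted p = 0.0750 by the exact test). The other sites of hTERT-RPE1 cells among the 6 with the largest gap, beside the one on chromosome Y, had 28 to 36 ChIP sequences against 10 to 15. The one on chromosome 13 at 47481407 to 47481901 had 36 and 1 in hTERT-RPE1 cells, against 15 and 4. Those on chromosome 15 at 68571718 to 68572495 and on chromosome 8 at 146048841 to 146049538 each overlapped another U2OS region too, with 23 ChIP and 11 IgG and with 50 ChIP and 13 IgG sequences, so that their gap depends on which region is taken.

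In the other direction, the largest gap was on chromosome 6 outside the window, at 150112935 to 150113355, with 14 ChIP and 10 IgG sequences in hTERT-RPE1 and 26 and 2 in U2OS cells. On chromosome 22, the site at 15982009 to 15982537 had 16 and 7 in hTERT-RPE1 cells and 47 and 3 in U2OS cells. Further sites on chromosome 17 at 1037202 and 7173355, chromosome 19 at 47449497 and chromosome 6 at 150304278 had 21 to 26 ChIP and 1 or 2 IgG sequences in U2OS cells and 11 to 17 ChIP and 4 to 9 IgG sequences in hTERT-RPE1 cells. The 6 were chosen for this gap, so that their direction is fixed by the choice. None passed the adjusted p, the lowest being 0.131 by the exact conditional test.

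The lowest p of U2OS-only pairs was found at deeper sites with IgG in both lines. On chromosome 2 at 218842704 to 218843558 there were 48 ChIP and 21 IgG sequences in hTERT-RPE1 cells and 82 and 10 in U2OS cells. On chromosome 22 at 41340660 to 41341868 there were 71 and 30 against 84 and 12. Depth-scaled ratios of counts were 0.24 (0.093 to 0.59) and 0.29 (0.13 to 0.64), with adjusted p = 0.0575 and 0.0650 by the exact conditional test. An unadjusted p under 0.05 was found for 13 of the 49 U2OS-only pairs (26.5%) and 8 of the 54 hTERT-RPE1-only pairs (14.8%). These pairs were chosen for passing in a single line, which by itself favors a low p.

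Sites without a listed partner were mostly shallow. In hTERT-RPE1 cells the deepest lay on chromosome 1 at 206063805 to 206064236, with 51 ChIP and 6 IgG sequences. The next, on chromosome 5 at 92944449 to 92945113, had 41 and 3, and began less than 1 kb after the end of a shared site at 92943026 to 92943688, which had 83 and 5 in hTERT-RPE1 cells and 39 and 7 in U2OS cells. It is the only pair of hTERT-RPE1 sites outside the window whose summits were within 10 kb. Sites on chromosome 10 at 78936209 to 78936777, chromosome 12 at 109031482 to 109031987, chromosome 22 at 36054613 to 36055451 and chromosome 15 at 39735637 to 39736034 had 32 to 38 ChIP and 4 to 8 IgG sequences. The median of this class was 22 ChIP sequences, against 27 for sites with a listed partner and 43 for shared sites.

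The U2OS library had a much deeper site of this kind on chromosome 21, at 44729506 to 44730459. It held 136 ChIP and 9 IgG sequences, the sixth highest count of all enriched U2OS regions, and a height of 119 reads. No region was listed there for any of the 4 factors in hTERT-RPE1 cells, while in U2OS cells NPAT was enriched (35 ChIP and 6 IgG sequences) and CASP8AP2 was listed (11 and 3). The next sites were on chromosome 2 at 129792575 to 129793209 (58 and 5), chromosome 14 at 100766216 to 100766688 (56 and 2), chromosome 18 at 4445121 to 4445842 (46 and 7), chromosome 2 at 126782222 to 126782710 (41 and 7) and chromosome 12 at 128019736 to 128020398 (36 and 3). NPAT was listed at all of the 6 but the one on chromosome 14, and only that one had a region of another factor in hTERT-RPE1 cells. Medians in U2OS cells were 23 ChIP sequences without a listed partner, 32 with one and 47.5 at shared sites.

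Shared sites also differed in shape. The rule did not use the height, but it used the ChIP sequences. A listed partner also needed a height of at least 8 in the other line. The classes are therefore not independent of this measure. The reads at the summit made up a median of 90.8% of the ChIP sequences of a shared region in hTERT-RPE1 cells, 75% at sites with a listed partner and 50.9% at sites without. In U2OS cells the medians were 88.8%, 83.3% and 60%. A share of at least 80% was found at 49 of 56, 23 of 49 and 25 of 136 sites in hTERT-RPE1 cells and at 45 of 56, 32 of 48 and 8 of 47 in U2OS cells. Reads of shared sites were thus gathered at one point, and those of sites without a partner were spread over a longer region. The median lengths were 471, 526 and 682 bp in hTERT-RPE1 cells and 533, 517 and 634 bp in U2OS cells.

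Among sites of like depth this order held only in part. At 20 to 24 ChIP sequences, the median share at the summit in hTERT-RPE1 cells was 82.7% for the 2 shared sites, 72.7% for 23 sites with a listed partner and 50% for 107 without. In U2OS cells it was 87.0% (7 sites), 66.7% (11) and 59.2% (30). At 50 or more it was 91.0%, 94.0% and 92.2% in hTERT-RPE1 cells, the last from 1 site, and 92.3%, 82.7% and 87.5% in U2OS cells, the last from 3 sites, so that the order was lost among the deepest sites. Between these depths, shared sites had a higher median than sites without a partner in both lines, 91.6 against 80% and 90.9 against 76.3% in hTERT-RPE1 cells (25 to 34 and 35 to 49 ChIP sequences) and 90.3 against 62.4% and 79.3 against 74.8% in U2OS cells. Sites with a listed partner were the lowest at 25 to 34 in hTERT-RPE1 cells (62.1%) and the highest at 35 to 49 in U2OS cells (88.6%). All 56 shared sites had a height of at least 16 reads in each line. At sites without a listed partner the height was 12 or less at 86 of 136 in hTERT-RPE1 cells and at 19 of 47 in U2OS cells, close to the limit of 8 below which a region is not listed.

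**Figure D3:**
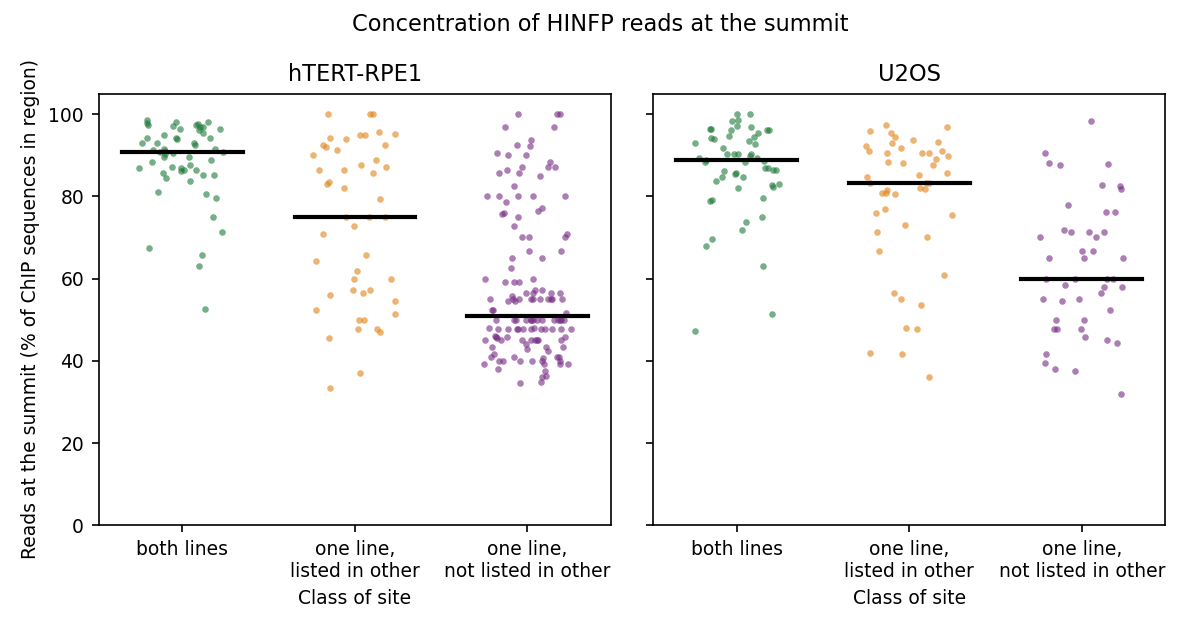
Reads at the summit as a percentage of the ChIP sequences of the region (y axis) for each HINFP site outside the chromosome 6 window (points), by class of site (x axis), in hTERT-RPE1 (left) and U2OS cells (right), with the median of each class (black bars). The medians go from 90.8 to 75 to 50.9% in hTERT-RPE1 cells and from 88.8 to 83.3 to 60% in U2OS cells.

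The position of the summit was nearly the same in the lines where both were enriched. The summits of the 56 shared pairs lay a median of 13.5 bp apart (quartiles 7 and 27 bp), and 51 of them (91.1%) were within 50 bp. Pairs enriched in U2OS cells only had a median distance of 18 bp, with 40 of 49 within 50 bp (81.6%). Pairs enriched in hTERT-RPE1 cells only had a median of 40.5 bp, with 32 of 54 within 50 bp (59.3%). At the 3000 overlapping pairs with no enriched member the median was 131 bp, and 28.6% were within 50 bp, at region lengths of 421 and 427 bp. Many sites enriched in one line and listed in the other thus had summits at nearly the same place, in particular those of U2OS cells. The 136 hTERT-RPE1 and 47 U2OS sites without a listed partner have no second summit and are not in these shares. The classes were not matched for depth.

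**Figure D4:**
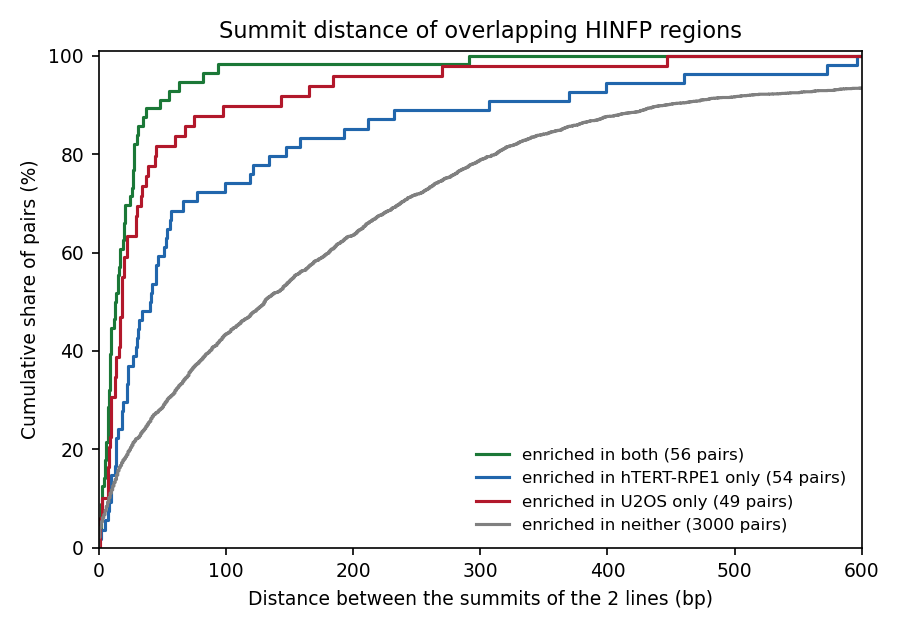
Cumulative share of pairs (y axis, in %) by the distance between the summits of hTERT-RPE1 and U2OS cells (x axis, in bp) for overlapping HINFP regions outside the chromosome 6 window, by class. Within 50 bp lie 91.1% of the pairs enriched in both lines, 81.6% of those enriched in U2OS cells only, 59.3% of those enriched in hTERT-RPE1 cells only and 28.6% of those enriched in neither.

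In each line the chromosome with the most sites without a partner was also the one with the most listed regions. In hTERT-RPE1 cells 22 of the 136 lay on chromosome 10 (16.2%), which held 2 of the 56 shared sites. The chromosome also held 7323 of all listed regions (11.4%, the most of any chromosome) with a median of 5 IgG sequences, against 3 or 4 on the other chromosomes apart from Y. In U2OS cells 7 of 47 lay on chromosome 8 (14.9%), which held 4693 listed regions (11.8%, again the most) with a median of 6 IgG sequences, and 2 shared sites. Other chromosomes of U2OS cells had medians from 2 (X) to 7 (22) apart from Y. Chromosome 17 had 6 of the 47 (12.8%) and chromosome 20 had 5 (10.6%), with 4.99 and 4.95% of the listed regions. In hTERT-RPE1 cells chromosome 9 had 11 of the 136 (8.09%) with 3.63% of the listed regions. Chromosome 1 had 7 there (5.15%) with 8.21%. Chromosome 22 of U2OS cells had its median of 7 with 4.93% of the regions, and chromosome 2 had a median of 4 with 9.19%. Chromosomes X and 13, with the fewest listed U2OS regions apart from Y, had medians of 2 and 3. The numbers of regions were not scaled by chromosome length, and a link between IgG and the density of regions was not tested. Chromosomes 10 and 8 were picked as the largest, and their shares of the sites are not far from those of the listed regions. The shares of chromosomes 9, 17 and 20 lay further from theirs, but rest on 5 to 11 sites each. Without chromosome 10, the sites without a partner were 114 of 216 in hTERT-RPE1 cells (52.8%), and without chromosome 8 they were 40 of 140 in U2OS cells (28.6%). Of the 56 shared sites, 12 lay on chromosome 1.

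**Figure D5:**
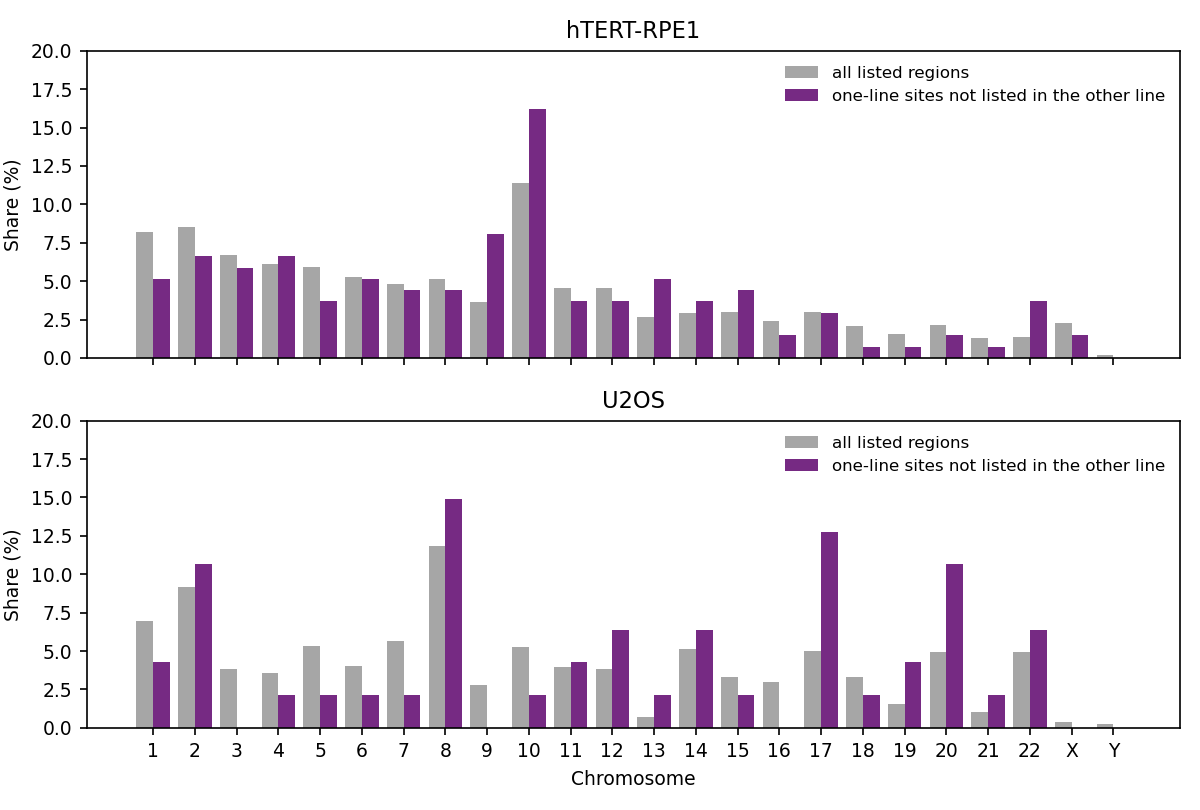
Share of all listed HINFP regions (grey) and of the enriched sites without a listed partner in the other line (purple), in % (y axis), by chromosome (x axis) in hTERT-RPE1 (top) and U2OS cells (bottom). Chromosome 10 holds 11.4 and 16.2% in hTERT-RPE1 cells, and chromosome 8 holds 11.8 and 14.9% in U2OS cells.

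The HINFP sites were next set beside the other factors, first by whether a region of the factor was listed at the site in the same line. E2F1 was listed at 38 of 56 shared sites in hTERT-RPE1 cells (67.9%, 95% Wilson interval 54.8 to 78.6%), at 25 of 49 with a listed partner (51.0%) and at 32 of 136 without (23.5%, 17.2 to 31.3%), against 13.5% of all listed HINFP regions. In U2OS cells E2F1 was listed at 34 of 56 (60.7%, 47.6 to 72.4%), 27 of 48 (56.2%, 42.3 to 69.3%) and 18 of 47 (38.3%, 25.8 to 52.6%), against 20.4%. In U2OS cells the intervals of the first 2 classes overlap widely, the classes differ in depth, and the difference between them was not tested. Of the 56 shared sites, 26 had one in both lines and 46 in at least one.

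NPAT, the partner of HINFP at histone genes, did not follow this order outside the window. It was listed at 19 of 56, 19 of 49 and 45 of 136 sites in hTERT-RPE1 cells (33.9, 38.8 and 33.1%), against 14.4% of all HINFP regions. In U2OS cells it was listed at 29 of 56, 35 of 48 and 25 of 47 (51.8, 72.9 and 53.2%), against 36.2%. CASP8AP2 was listed at 19, 21 and 30 of these sites in hTERT-RPE1 cells (33.9, 42.9 and 22.1%), against 10.4%, and at 30, 24 and 24 in U2OS cells (53.6, 50 and 51.1%), against 28.5%. A listed region may hold no more than its control. At shared sites the median ratio over rabbit IgG was 1.88 for NPAT, 1.57 for CASP8AP2 and 2.15 for E2F1 in hTERT-RPE1 cells and 2.14, 1.84 and 2.19 in U2OS cells. The comparison with all HINFP regions is one of unlike depth, since these mostly hold few sequences.

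Enrichment of another factor, by the same rule, was rare outside the window. In hTERT-RPE1 cells NPAT was enriched at 0 of the 241 HINFP sites (95% Wilson interval up to 1.57%), CASP8AP2 at 1 (0.415%) and E2F1 at 7 (2.90%), against 0.219, 0.118 and 0.365% of all listed HINFP regions. In U2OS cells NPAT was enriched at 5 of 151 sites (3.31%), CASP8AP2 at 0 (up to 2.48%) and E2F1 at 4 (2.65%), against 0.53, 0.316 and 0.338%. These counts are too small to rank the classes of sites.

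Outside the window, only the shared site on chromosome 19 at 2413940 to 2414514 was enriched for another factor in both lines. HINFP had 44 ChIP and 3 goat IgG sequences there in hTERT-RPE1 cells and 25 and 2 in U2OS cells. E2F1 had 52 ChIP and 10 rabbit IgG sequences in hTERT-RPE1 cells and 23 and 5 in U2OS cells. The ratios of both factors were therefore alike in the lines, 11.2 and 8.67 for HINFP and 4.82 and 4 for E2F1. The last lies exactly at the limit, and 4 shared sites had enriched E2F1 in at least one line. On chromosome 3 at 17758828 its ratio was 3.72 in hTERT-RPE1 and 4 in U2OS cells. On chromosome 1 at 153480957 it was 3.17 and 4.375, and on chromosome 8 at 89409210 it was 5.125 and 2.22.

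Other HINFP sites of hTERT-RPE1 cells with enriched E2F1 were mostly weak for HINFP. On chromosome 4 at 174492146 to 174492841, E2F1 had 153 ChIP and 21 IgG sequences and HINFP 24 and 3. On chromosome 10 at 95246440 to 95247012, E2F1 had 125 and 30 and HINFP 20 and 4. At these 2 sites E2F1 reads far outnumbered those of HINFP, and the first had a HINFP region listed in U2OS cells while the second had none. CASP8AP2 was enriched at the shared chromosome 5 site at 92943026, with 53 ChIP and 10 IgG sequences in hTERT-RPE1 cells.

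In U2OS cells, beside the chromosome 21 site, NPAT was enriched at shared sites on chromosome 16 at 66310553 to 66311215 and chromosome 3 at 17758657 to 17759336. HINFP had 108 ChIP and 11 IgG sequences at the first and 61 and 8 at the second, while NPAT had 34 and 3 and 25 and 4. E2F1 was enriched at the second as well, with 27 and 6, a ratio of 4 that lies exactly at the limit. CASP8AP2 was listed there with 26 and 6, a ratio of 3.86 just under the limit. By the rule, 3 of the 4 factors were thus enriched at the second site in U2OS cells. NPAT was also enriched at sites on chromosome 12 at 14815126 to 14815622 and chromosome 19 at 61606892 to 61607469, which were listed in hTERT-RPE1 cells without passing the rule for HINFP. On chromosome 12 NPAT had 161 ChIP and 33 IgG sequences against 48 and 8 of HINFP.

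Inside the chromosome 6 window the pattern was another one. All 8 HINFP sites of hTERT-RPE1 cells were shared (100%, 95% Wilson interval 67.6 to 100%), and so were 8 of the 9 sites of U2OS cells (88.9%, 56.5 to 98.0%). NPAT was enriched at 7 of the 8 shared sites in both lines, and CASP8AP2 at 2 in hTERT-RPE1 and 6 in U2OS cells, while E2F1 was enriched at none. Their ChIP sequences had a median of 54.5 in hTERT-RPE1 cells (23 to 151) and 58 in U2OS cells (25 to 73), in the range of the shared sites outside the window, none of which had enriched NPAT in hTERT-RPE1 cells and 2 of which did in U2OS cells. The summits of the 8 pairs lay a median of 15 bp apart.

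The site of the window that was found in U2OS cells only lay at 27214766 to 27215282. HINFP had 85 ChIP and 6 IgG sequences there, the most of the U2OS sites in the window, and 80 reads at the summit. NPAT had 166 ChIP and 17 IgG sequences and CASP8AP2 88 and 20 in U2OS cells, and both were enriched. No HINFP region was listed there in hTERT-RPE1 cells, whereas a region of another factor was.

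The limits of the rule cut through many weak regions. In hTERT-RPE1 cells 52 enriched regions had exactly 20 ChIP sequences, and 72 regions with 19 and a ratio of at least 4 stayed outside. In U2OS cells the numbers were 16 and 25. Regions with a ratio of 4 to under 4.5 numbered 49 in hTERT-RPE1 and 33 in U2OS cells, and those with 3.5 to under 4 numbered 61 and 36. Just inside was, for example, the hTERT-RPE1 region on chromosome 1 at 110231303 to 110231926 with 20 ChIP and 4 IgG sequences, and just outside the one on chromosome 10 at 50385099 to 50385831 with 19 and 0. In U2OS cells the region on chromosome 13 at 27301979 to 27302420 passed with 23 and 5 (ratio 4), and that on chromosome 12 at 730591 to 731073 did not with 42 and 10 (ratio 3.91). Sites are given by position, because a gene annotation of NCBI36 was not used here, and which of them lie at histone genes was not analysed here.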

How the data were processed

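The authors precipitated chromatin with 5 µg of antibody, sequenced it on an Illumina Genome Analyzer or HiSeq2000 and mapped the reads to NCBI36. The aligner, the peak caller and the handling of duplicate reads are not given in the sources used here. The lists deposited for each ChIP library give raw counts of ChIP and IgG sequences per region, not normalized. The deposited height column is a signal, namely how many reads overlap the summit. The deposited fold change is the ratio of both counts plus 1, scaled by 1 constant per library, and the deposited p-value was not used. IgG libraries entered only through the counts at each region.

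Members were found with a minimum of 20 ChIP sequences, a ratio of 4 and an overlap of 1 bp. The rule and the lists were chosen with earlier results of these data known. Pairs of overlapping regions were tested with the exact conditional test of ChIP and IgG counts by line (Fisher's noncentral hypergeometric distribution, two-sided by doubling), with the ratio of the library constants as the odds of no difference. P-values were adjusted by Benjamini-Hochberg over 3212 pairs at a threshold of 0.05. Intervals of shares are 95% Wilson intervals. The test was checked on simulated counts. Computations ran in Python 3.11.15 with scipy 1.17.1, pandas 2.3.3 and numpy 2.4.6, and plots in matplotlib 3.10.9. Alternatives were a minimum of 30 or 15 ChIP sequences, a ratio of 8, the deposited fold change of at least 4, 5 added to both counts, summits within 200 bp, an overlap of 50%, a ratio of 2 in the other line, no depth offset and a test of only the pairs with 20 or more ChIP sequences.

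The sites named were the 12 shared sites with the highest lower ratio, per line the 6 deepest sites without a listed partner and the 6 with the largest gap in fold change among those with one, sites called by the test, sites enriched for another factor in both lines, regions next to the limits and the site found in a single line in the chromosome 6 window. The other sites named, among them those with the lowest p that were not called, those with an IgG count of 0, those next to another site and those with another factor enriched in a single line, were chosen after their values were seen, as were the counts without chromosomes 10 and 8. Gene names and sequences at the sites were left out, since the reference tables are on another build.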

Additional observations from a re-analysis of the deposited data

Results flagged for a closer look

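The HINFP region on chromosome Y at 11923025 to 11923533 stood out by the test of the difference between the libraries. The ratio of its fold changes, hTERT-RPE1 over U2OS, was 6.82, from 24 ChIP and 5 IgG sequences in hTERT-RPE1 cells and 10 and 20 in U2OS cells (adjusted p = 0.0470 by the exact conditional test). The rule had chosen and classed the region by these same counts, which fixes the direction and favors a low p, and each line has 1 library. IgG counts of regions on chromosome Y were high in both lines, with medians of 24 and 23, and their part in the result was not tested.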

How the results depend on the processing

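The numbers of sites depended strongly on the limits, and 27 of the 41 values recomputed moved by more than 1.5 times. With a minimum of 30 ChIP sequences, 81 regions were enriched in hTERT-RPE1 and 91 in U2OS cells, 40 sites were shared, 41 and 51 were found in hTERT-RPE1 and U2OS cells only, and 0 pairs differed by the exact conditional test. A minimum of 15 gave 1379 and 466 regions, 1306 and 393 sites in a single line and 3 pairs that differed. A ratio of at least 8 gave 85 and 47 regions, 21 shared sites, 64 and 26 in a single line and 0 pairs. With 5 added to both counts there were 104 and 79 regions, 37 shared sites, 67 and 42 in a single line and 0 pairs. When a ratio of at least 2 in the other line sufficed, 138 sites were shared and 57 were found in U2OS cells only. Without the depth offset 3 pairs differed, those on chromosomes Y, 15 (42367813) and 8 (120168532), and when only the 1408 pairs with 20 or more ChIP sequences were tested 5 did, with those on chromosomes 22 (41340660) and 2 (218842704) added. The pairs lost under stricter limits were no longer enriched, while their own p was the same. The number of sites in hTERT-RPE1 cells exceeded that in U2OS cells under every limit but the minimum of 30. Shared regions were 49.4% of the hTERT-RPE1 and 44.0% of the U2OS regions at that minimum, and 5.29 and 15.7% at a minimum of 15. The deposited fold change, summits within 200 bp and an overlap of 50% moved no count by over 1.5 times. No paired analysis was possible because each group has 1 library. Depth limits all of these values, since the total reads of a library are not in the lists and few IgG sequences stand behind each ratio.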
